A study of Mus musculus with 4 samples.

Results

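The bulge is the niche of the hair follicle that holds its stem cells, and 10 genes used as markers or regulators of these cells were followed in dorsal skin: Cd34, Lgr5, Lgr6, Lrig1, Krt15, Sox9, Lhx2, Nfatc1, Tcf7l1 and Foxp1. They were chosen by name, from probe sets that the array's annotation gives exactly 1 gene symbol, and all 10 were found among 18194 genes, with 28 of 34958 probe sets. Whole dorsal skin was taken from male C57B6 mice at postnatal day 59 (P59, late in adult telogen) and postnatal day 54 (P54, in the middle of it), with 2 arrays per time. Telogen is the resting phase of the hair cycle. No treatment, transgene or mutation is given for either group. The labels call the arrays of a group biological replicates without saying which animals, or how many, gave each sample. The p-values therefore measure the spread between these samples.

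In resting follicles the bulge and the small hair germ beneath it hold slow-cycling keratinocytes from which the next hair is built. Signals such as bone morphogenetic proteins and fibroblast growth factor 18 keep these cells quiet, and Wnt signals start a new growth phase, anagen. Surface proteins and keratins mark the compartments: Cd34 and Krt15 the bulge, Lgr5 the lower bulge and hair germ, Lgr6 and Lrig1 the isthmus and junctional zone above it. Sox9, Lhx2, Nfatc1, Tcf7l1 and Foxp1 are transcription factors that maintain stem cell identity or quiescence in mouse follicles.

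The promoters of Lgr6, Lhx2 and Foxp1 are shown because these members had an unadjusted p under 0.05 in limma's fit and a promoter in the table that holds a core motif of a factor family among the members. Each sequence runs 5′ to 3′ on the gene's strand from 250 bases before a RefSeq start to 50 bases after it (GRCm38.p6), and capitals mark the matches. The Lgr6 promoter lies at chr1:135105227-135105526 on the minus strand. The Lhx2 promoter of its downstream start lies at chr2:38351058-38351357 on the plus strand. The Foxp1 promoter of its middle start lies at chr6:99266466-99266765 on the minus strand.
Lgr6: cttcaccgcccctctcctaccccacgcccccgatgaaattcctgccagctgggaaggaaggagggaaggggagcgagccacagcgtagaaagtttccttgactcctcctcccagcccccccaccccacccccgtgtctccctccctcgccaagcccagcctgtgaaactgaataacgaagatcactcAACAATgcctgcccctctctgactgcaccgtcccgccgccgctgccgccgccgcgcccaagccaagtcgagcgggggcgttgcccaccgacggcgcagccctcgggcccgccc
Lhx2: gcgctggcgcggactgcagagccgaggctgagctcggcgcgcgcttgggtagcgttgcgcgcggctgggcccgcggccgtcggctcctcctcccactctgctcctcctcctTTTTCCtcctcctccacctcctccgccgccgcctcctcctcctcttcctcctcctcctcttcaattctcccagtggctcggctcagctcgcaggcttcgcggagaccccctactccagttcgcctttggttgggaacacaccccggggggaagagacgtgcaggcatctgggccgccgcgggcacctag
Foxp1: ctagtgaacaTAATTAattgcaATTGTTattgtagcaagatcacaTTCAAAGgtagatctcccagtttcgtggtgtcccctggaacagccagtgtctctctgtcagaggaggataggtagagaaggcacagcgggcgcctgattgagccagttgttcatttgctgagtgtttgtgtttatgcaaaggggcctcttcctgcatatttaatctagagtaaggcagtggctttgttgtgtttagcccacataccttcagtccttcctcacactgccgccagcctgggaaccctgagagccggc

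The motifs searched on both strands were ATCAAAG and TTCAAAG for TCF/LEF factors, AACAAT for SOX factors, GTAAACA for FOX factors, GGAAAA for NFAT and TAATTA for LIM homeobox factors. The RefSeq table held 9 promoters of 6 members: Cd34, Lgr6, Lrig1, Lhx2, Tcf7l1 and Foxp1. AACAAT or its complement stood in the Lgr6, Lrig1 and middle Foxp1 promoters, and in 10.7% of 32851 promoters in the table. GGAAAA matched on the opposite strand of the downstream Lhx2 promoter, against 23.4% of all promoters. The middle Foxp1 promoter also held TTCAAAG, found in 5.14% of all promoters, and TAATTA, found in 5.29%, and its 3 matches did not overlap. The matches are letters in these windows and show nothing of binding.

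Intensities were RMA values on a linear scale, taken here to log2, so that 1 unit is a doubling. All 10 members lay above the intensity filter of 6.58. P59 replicate 2 stood apart from the other arrays, with a score of 35.4 on a first principal component that held 57.3% of the variance, against -4.33, -8.56 and -22.5 for P59 replicate 1 and P54 replicates 1 and 2. Of 10916 genes tested, 46.4% had their highest value in P59 replicate 2. The P59 arrays had a Spearman correlation of 0.930 across genes and the P54 arrays 0.976. P59 replicate 1 was closer to P54 replicates 1 and 2, at 0.970 and 0.953, than to P59 replicate 2. P59 replicate 2 had 0.938 and 0.915 with P54 replicates 1 and 2. The P59 arrays therefore did not group by time in these correlations. 

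The 10 bulge genes had lower means at P59 than at P54, where 41.6% of all genes tested did. Their differences ranged from -0.76 to -0.04 on the log2 scale with a median of -0.19, and the median over all genes was 0.05. Lgr6, Foxp1, Lgr5 and Lhx2 differed by 0.58 or more, and the other 6 by 0.20 or less. In limma's fit 0 of the 10 passed the adjusted threshold of 0.05, as 0.0183% of all genes did. Lgr6, Foxp1, Lgr5 and Lhx2 had an unadjusted p under 0.05, where 3.01% of all genes did in this direction and 6.49% in either. The 2 P59 arrays lay below both P54 arrays for 7 of the 10, against 14.8% of all genes (18.9% the other way), but for Lrig1, Nfatc1 and Krt15 the gap was under 0.1. The members were chosen with earlier results of these data known, so these counts are descriptions. An exact permutation test of 2 arrays against 2 cannot go below a two-sided p of 0.333. In whole skin, fewer cells of a type and less RNA per cell cannot be told apart.

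**Figure D1:**
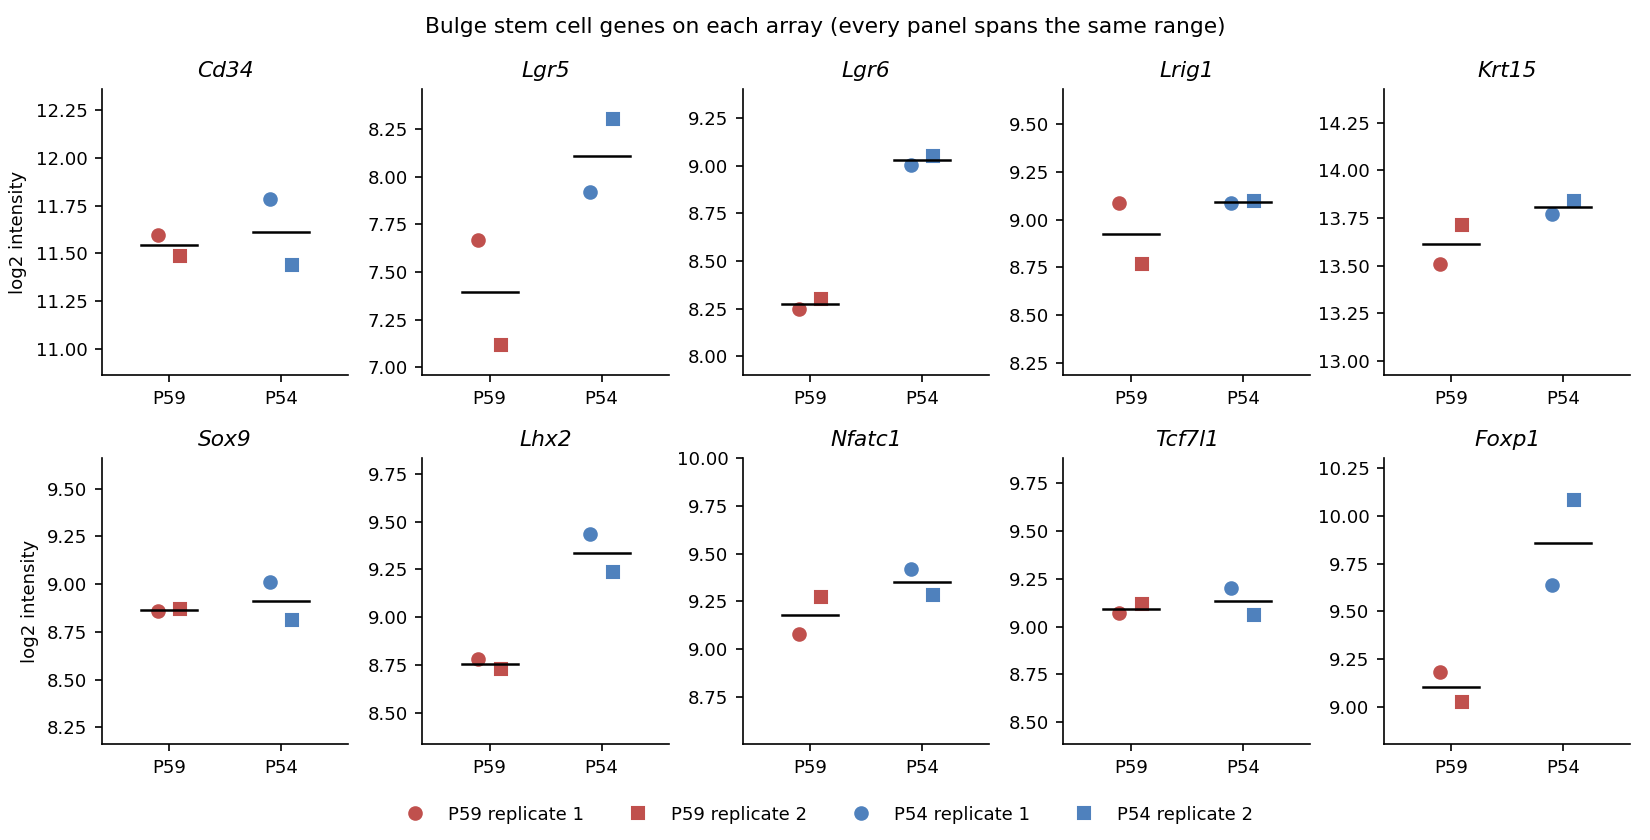
Log2 intensity of each of the 10 genes on every array, P59 left of P54, with circles for replicate 1, squares for replicate 2 and a bar at the group mean. Every panel spans the same range. The P59 arrays of Lgr6, Lgr5, Lhx2 and Foxp1 lie below the P54 arrays, and those of Cd34, Sox9 and Tcf7l1 overlap them.

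Lgr6 encodes a receptor for R-spondins, secreted proteins that strengthen Wnt signalling, and marks stem cells of the isthmus. It had log2 intensities of 8.25 and 8.30 in P59 replicates 1 and 2, against 9.00 and 9.05 in P54 replicates 1 and 2. The replicates of each time lay within 0.05 of each other and the groups were 0.70 apart. The difference was -0.75 (SE 0.22, 95% interval -1.25 to -0.26), a 1.69-fold lower level at P59, with an adjusted p of 0.492 in limma's fit. Leaving out each array in turn gave -0.78 to -0.73. A second probe set of Lgr6, nearer to the filter, read 6.68 and 6.63 at P59 and 6.91 and 6.80 at P54. Its groups did not overlap either, but its difference was -0.20, and averaging both sets gave -0.47.

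Lgr5, the paralogue of Lgr6 that marks the lower bulge and hair germ, had 7.67 and 7.12 in P59 replicates 1 and 2, against 7.92 and 8.30 in P54 replicates 1 and 2. All 4 arrays were spread over 1.18, the widest range among the members, with P59 replicate 2 lowest. The difference was -0.72 (SE 0.27, 95% interval -1.31 to -0.12, adjusted p = 0.628 in limma's fit). Without P59 replicate 2 it was -0.44, and without P59 replicate 1 it was -0.99. The other Lgr5 probe set lay below the filter at 4.92 and 5.23 in P59 skin and 4.98 and 5.31 in P54 skin, and differed by -0.07. Averaging both sets gave -0.39.

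Lrig1, which encodes a membrane protein that restrains epidermal growth factor receptors and marks the junctional zone, stood at 9.09 and 8.77 in the P59 arrays, against 9.09 and 9.10 in the P54 arrays. Its difference of -0.17 (95% interval -0.68 to 0.35, adjusted p = 0.961 in limma's fit) lay in P59 replicate 2, and was -0.01 without it. A second set read 9.01 and 8.65 at P59 and 9.12 and 9.05 at P54, a difference of -0.26. The third set, below the filter, ran the other way and differed by 0.29, with groups that did not overlap.

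Krt15, a keratin of bulge and basal keratinocytes, had 13.51 and 13.71 at P59, against 13.77 and 13.84 at P54, from its only probe set. The groups were 0.06 apart, less than the 0.20 between the P59 replicates. Its difference was -0.20 (95% interval -0.70 to 0.31, adjusted p = 0.952 in limma's fit), and -0.30 without P59 replicate 2.

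Cd34 encodes a surface sialomucin that is found on bulge cells in mice and also on endothelial cells, mast cells and dermal fibroblasts. It had 11.60 and 11.49 in the P59 arrays, against 11.78 and 11.44 in the P54 arrays, and the P59 values lay between the P54 values. The difference was -0.07 (95% interval -0.59 to 0.46), with an adjusted p of 0.990 in limma's fit. Of 6 endothelial markers tested, 4 were lower and 2 higher at P59, with a summed linear intensity of 1398 and 1466 at P59 and 1654 and 1348 at P54. Of 5 fibroblast markers, 4 were higher and 1 lower, with sums of 61093 and 65434 at P59 and 62929 and 60039 at P54. The part of these cells in the Cd34 level was not tested.

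Foxp1 encodes a forkhead repressor that holds bulge cells in quiescence. Its highest-mean probe set read 9.18 and 9.02 in P59 replicates 1 and 2, against 9.64 and 10.08 in P54 replicates 1 and 2. Both P59 arrays were below both P54 arrays by at least 0.45. The difference was -0.76 (SE 0.25, 95% interval -1.30 to -0.21, adjusted p = 0.547 in limma's fit), a 1.69-fold lower level. It was -0.68 without P59 replicate 2 and -0.53 without P54 replicate 2.

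Foxp1 had 8 probe sets, all with a lower mean at P59, but the size depended on the set. The largest difference, -1.48, was at a set that read 6.69 and 5.82 at P59 and 7.22 and 8.25 at P54, and a set that shares its source sequence accession differed by -1.11. Another set of that accession differed by -0.26 with groups that overlapped. At the other end a set at 8.78 and 9.06 in P59 skin and 8.92 and 9.00 in P54 skin differed by -0.04. P54 replicate 2 was higher than P54 replicate 1 at all 8 sets. The mean of the 8 sets differed by -0.64.

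Lhx2, a LIM homeobox factor that restrains activation of follicle stem cells, had 8.78 and 8.73 at P59, against 9.44 and 9.24 at P54, from its only probe set. The P59 arrays were 0.05 apart, the P54 arrays 0.20 apart and the groups 0.46 apart. The difference was -0.58 (SE 0.23, 95% interval -1.08 to -0.08, adjusted p = 0.673 in limma's fit), a 1.50-fold lower level, and it lay between -0.68 and -0.48 with each array left out.

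Nfatc1, a calcium-regulated factor that bone morphogenetic protein signalling keeps on in quiescent bulge cells, had 9.08 and 9.27 at P59, against 9.42 and 9.28 at P54, at its highest-mean set. P59 replicate 2 and P54 replicate 2 were 0.01 apart. This set differed by -0.18 (95% interval -0.68 to 0.33, adjusted p = 0.954 in limma's fit), and by -0.27 without P59 replicate 2. Its other sets above the filter differed by more. One read 8.98 and 8.24 at P59 and 9.68 and 9.56 at P54, a difference of -1.01. The other read 8.04 and 7.15 at P59 and 8.76 and 8.98 at P54, a difference of -1.27. Both sets had P59 replicate 2 lowest and groups that did not overlap, and the mean of all 5 sets differed by -0.55. The annotation used here does not say which transcripts each set reads, and a splice form was not tested.

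Sox9, which specifies follicle stem cells, had 8.86 and 8.87 at P59, against 9.01 and 8.81 at P54. The P59 values fell between the P54 values, and the difference was -0.05 (95% interval -0.55 to 0.46). A second set above the filter read 8.50 and 8.48 at P59 and 8.42 and 8.43 at P54, a difference of 0.07 in the other direction. The last set of Sox9, below the filter, differed by 0.27. At both of these sets the groups did not overlap.

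Tcf7l1, a TCF/LEF factor that represses Wnt target genes when beta-catenin is absent, had 9.07 and 9.12 at P59, against 9.20 and 9.06 at P54. The groups overlapped and the difference was -0.04 (95% interval -0.54 to 0.46). Its second set read 8.16 and 8.11 at P59 and 8.42 and 8.25 at P54, and differed by -0.21.

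**Figure D2:**
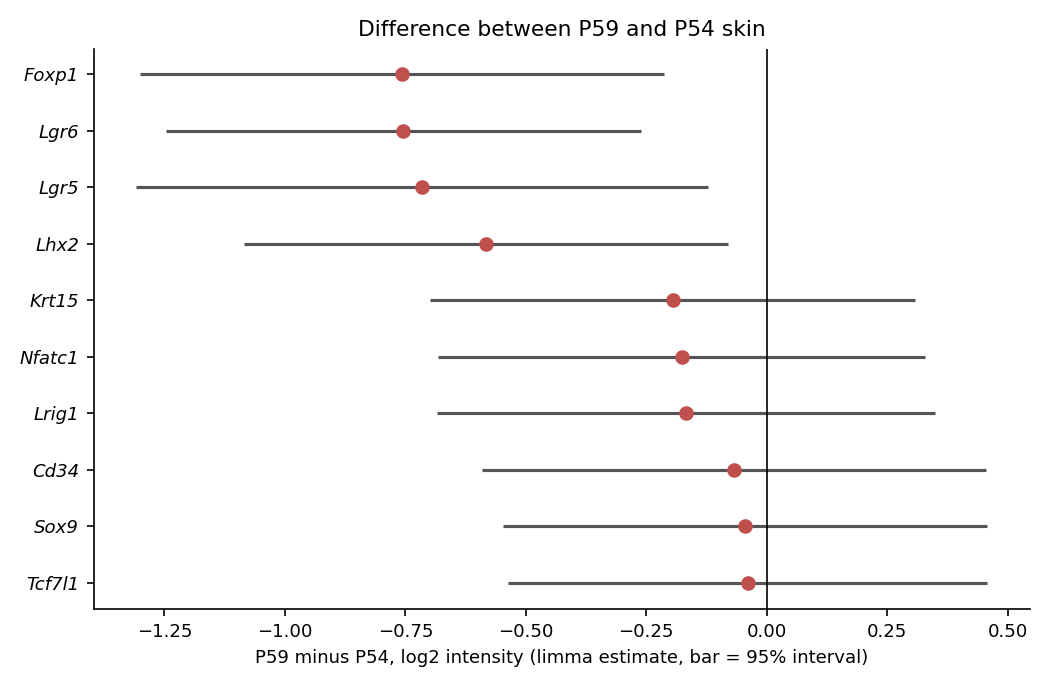
Difference of P59 minus P54 in log2 intensity for the 10 genes, ordered by size, with dots for limma's estimate and bars for its 95% interval. The intervals of Foxp1, Lgr6, Lgr5 and Lhx2 lie below 0, and the other 6 include 0.

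**Figure D3:**
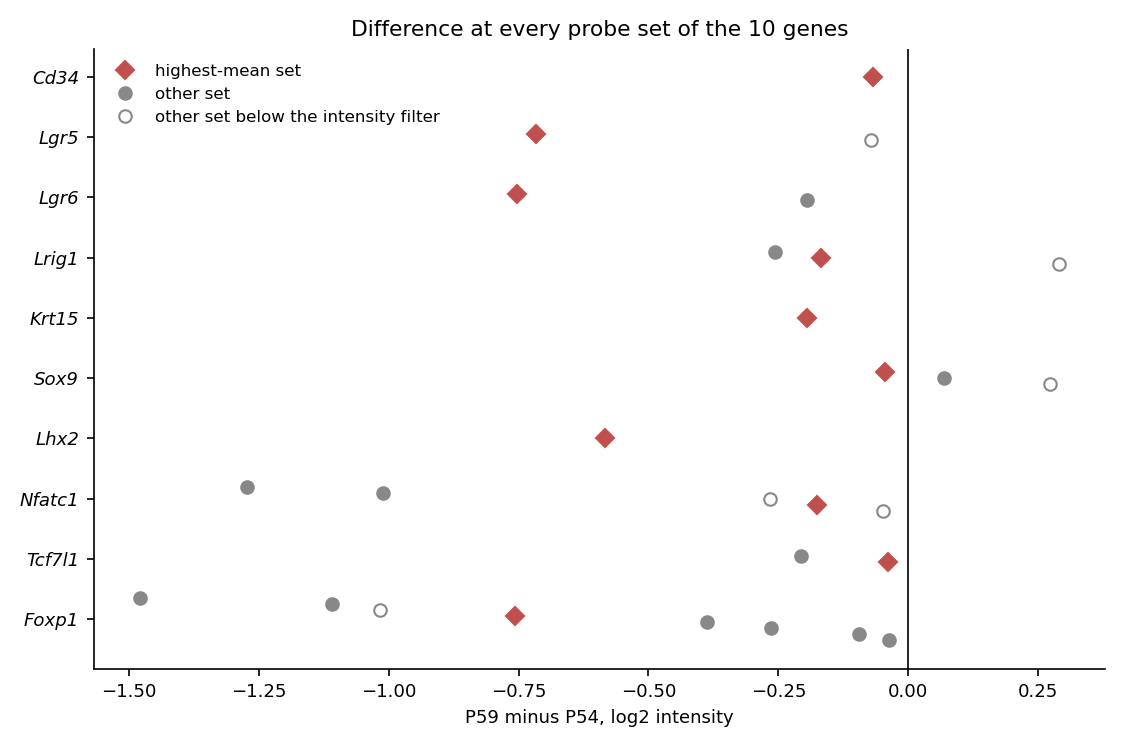
Difference of P59 minus P54 in log2 intensity at every probe set of the 10 genes, with diamonds for the highest-mean set, grey dots for other sets and open dots for sets below the intensity filter. Of 28 sets 25 lie below 0, and the sets of Foxp1 and Nfatc1 are spread widely.

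Over all 28 probe sets 25 had a lower mean at P59, among them 21 of the 22 above the filter. The 3 higher sets belonged to Sox9, with 2, and Lrig1, with 1. Groups did not overlap at these 3 sets and at 17 of the lower ones, and overlapped at 8. The sets of a gene read the same RNA samples and are not replicates.

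Among the members 4 had their lowest value in P59 replicate 2, 3 in P59 replicate 1 and 3 in P54 replicate 2. Of all genes tested, 23.4% were lowest in P59 replicate 2, 26.6% in P59 replicate 1 and 42.0% in P54 replicate 2. Neither P59 array held the highest value of any member, though 46.4% of all genes tested were highest in P59 replicate 2 and 17.5% in P59 replicate 1. The median gap between replicates was 0.13 for the members and 0.30 over all genes at P59, and 0.17 and 0.19 at P54. Cd34, Sox9 and Tcf7l1 were each highest in P54 replicate 1 and lowest in P54 replicate 2. Lgr5, Foxp1 and Lrig1 were each highest in P54 replicate 2 and lowest in P59 replicate 2.

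**Figure D4:**
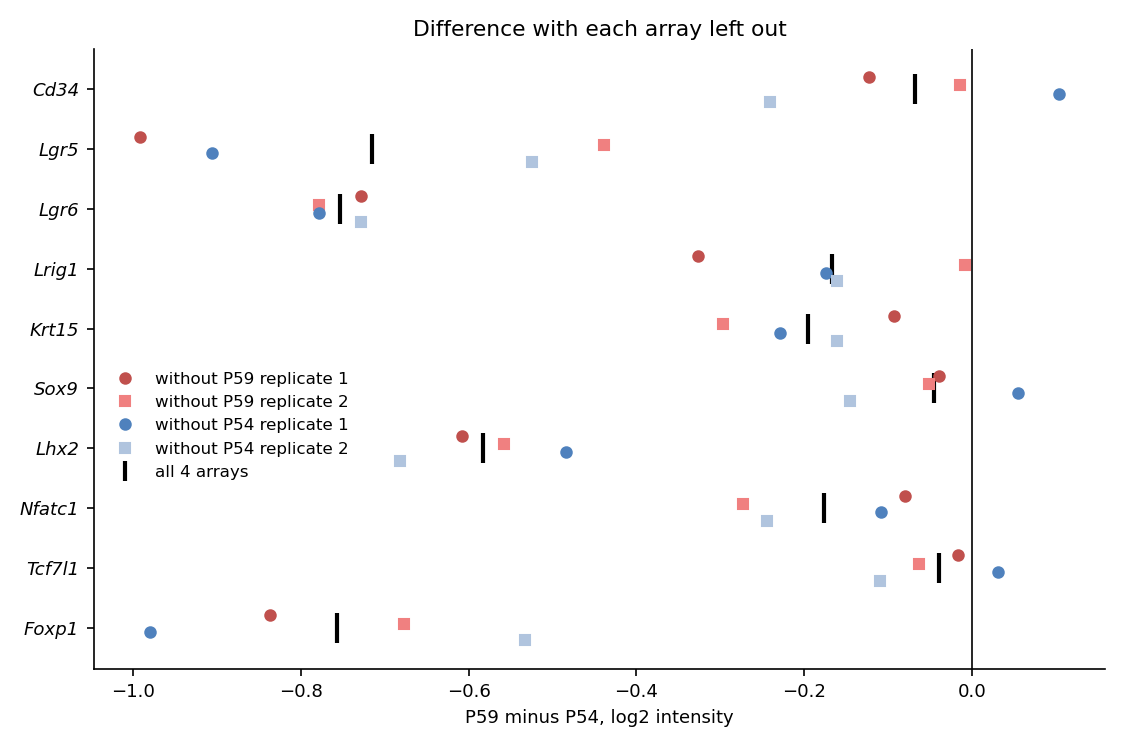
Difference of P59 minus P54 in log2 intensity of the 10 genes with all 4 arrays (black bars) and with each array left out (symbols). Lgr6 moved least among the 4 genes of largest difference, from -0.78 to -0.73, and Lgr5 most, from -0.99 to -0.44.

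Lgr5 and Foxp1 had the widest ranges over the 4 arrays, and the genes with the most similar profiles were sought for them. Likeness was the root mean square distance between log2 values centred on each gene's mean over the 4 arrays. The nearest to Lgr5 were Pkp3, a desmosomal plakophilin, at 0.02, Cdk9, a kinase of transcription elongation, at 0.04, and the peroxisome gene Pex10 at 0.05. Pkp3 read 10.47 and 9.95 at P59, against 10.70 and 11.08 at P54. The nearest to Foxp1 were Nccrp1 at 0.03, Srcin1 at 0.05 and the sepiapterin reductase gene Spr at 0.05. These distances rest on 4 arrays and describe them only.

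Other genes of the bulge and hair germ were mixed. Of 14 tested, 9 were lower and 5 higher at P59, with a median of -0.17. Groups did not overlap for 5 lower and 2 higher genes, against 14.8% and 18.9% of all genes tested. In limma's fit 0 passed the adjusted threshold and 3 had an unadjusted p under 0.05, where 6.49% of all genes did. Fgf18, the growth factor that holds follicles at rest, had 6.77 and 6.82 at P59, against 7.40 and 7.65 at P54. The difference was -0.72 (adjusted p = 0.519 in limma's fit), and it was between -0.85 and -0.60 with each array left out. Col17a1, the hemidesmosome collagen of basal and bulge keratinocytes, had 12.02 and 11.98 at P59, against 12.46 and 12.76 at P54 (-0.61, adjusted p = 0.638). Ccn2, a matricellular protein gene, had a difference of -1.39 that depended on the array left out. It was -0.45 without P59 replicate 1 and -2.32 without P59 replicate 2. Tbx1, a T-box factor of bulge cells, differed by -0.46, and by -0.16 without P59 replicate 2. Of the 4 markers of the isthmus and junctional zone tested, 3 had a higher mean at P59. In limma's fit 0 had an unadjusted p under 0.05, against the same 6.49% of all genes. Gata6 differed by 0.32, Plet1 by 0.23, Krt79 by 0.15 and Prdm1 by -0.01. Without P59 replicate 2 Gata6 differed by 0.15, Plet1 by -0.053 and Krt79 by 0.27, and averaged over its probe sets Gata6 differed by -0.077.

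In the LGR and R-spondin axis 4 of 8 genes passed the filter, 2 lower and 2 higher. In limma's fit 0 passed the adjusted threshold and 0 had an unadjusted p under 0.05, where 6.49% of all genes did. In lists this short a count of 0 does not show a lack of change. Lgr4, another receptor of this family, had 10.21 and 10.52 at P59, against 10.65 and 10.47 at P54, a difference of -0.20 with groups that overlapped, and of -0.35 without P59 replicate 2. The ligand gene Rspo1 differed by -0.32 (-0.58 without that array), the ubiquitin ligase gene Znrf3, whose product R-spondins inhibit, by 0.09, and the Wnt target Axin2 by 0.05. Among relatives of Lrig1 and the receptors it restrains, 3 of 5 were lower and 2 higher. Again 0 had an unadjusted p under 0.05 in limma's fit, against 6.49% of all genes. Lrig3 had 9.06 and 9.08 at P59, against 9.35 and 9.48 at P54 (-0.35), and the receptor gene Erbb2 also differed by -0.35, while Egfr differed by 0.22 and Erbb3 by 0.18. Without P59 replicate 2 Egfr differed by -0.0070 and Erbb3 by -0.026.

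The relatives and cofactors of the 5 transcription factors did not move one way. Of 6 TCF/LEF factors, beta-catenin and Groucho corepressors tested, 5 were lower and 1 higher with a median of -0.19. In limma's fit 0 had an unadjusted p under 0.05, where 6.49% of all genes did. The higher gene was Lef1, a factor of the activated hair germ and matrix. It had 7.10 and 6.98 at P59, against 6.57 and 6.75 at P54 (0.38, adjusted p = 0.875 in limma's fit). The corepressor genes Tle1, Tle3 and Tle2 differed by -0.31, -0.30 and -0.21. Averaged over their probe sets Tle1 differed by -0.038 and Tle3 by -0.96, and without P59 replicate 2 Tle1 differed by -0.54. Of 8 NFAT and calcineurin genes 4 were lower and 4 higher with a median of 0.00. Here too 0 had an unadjusted p under 0.05 in limma's fit, against 6.49% of all genes. Rcan1, a target and inhibitor of calcineurin signalling, differed by -0.30, the calcineurin subunit genes Ppp3r1 by -0.29 and Ppp3cb by 0.24, and Cdk4, which Nfatc1 represses, by -0.28. Averaged over their probe sets Rcan1 differed by -1.07 and Ppp3cb by -0.0091. Without P59 replicate 2 Ppp3r1 differed by 0.14 and Cdk4 by -0.07.

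Of 6 other relatives and partners of the factors tested, 4 were lower and 2 higher at P59. In limma's fit 2 of the lower and 1 of the higher had an unadjusted p under 0.05, where 6.49% of all genes did. Groups did not overlap for 3 lower genes and 1 higher gene, against 14.8% and 18.9% of all genes tested. Ldb1, the cofactor through which LIM homeobox factors act, had 8.69 and 6.39 at P59, against 8.74 and 9.48 at P54. The difference of -1.57 (adjusted p = 0.618 in limma's fit) lay mainly in P59 replicate 2, and was -0.43 without it. Leaving out P59 replicate 1 gave -2.72 and leaving out P54 replicate 1 gave -1.94. Ldb2 differed by -0.34, and by -0.62 without P59 replicate 2. Foxp4, a relative of Foxp1, had 6.95 and 6.26 at P59, against 7.18 and 7.45 at P54 (-0.70, adjusted p = 0.691). It differed by -0.36 without P59 replicate 2 and by -0.41 averaged over its probe sets. Sox4, a SOX factor of progenitor cells, was 10.51 and 11.29 at P59, against 10.17 and 9.94 at P54 (0.85, adjusted p = 0.585), but averaged over its probe sets the difference was -0.27. It was 0.46 without P59 replicate 2 and 1.23 without P59 replicate 1. Of 4 inhibitors of cyclin-dependent kinases, Cdkn1a differed by -0.33, Cdkn1b by -0.09, Cdkn2b by 0.12 and Cdkn1c by 0.37. In limma's fit 0 of these 4 had an unadjusted p under 0.05, against 6.49% of all genes. Averaged over its probe sets Cdkn1a differed by -0.58, and Cdkn2b differed by -0.016 without P59 replicate 2.

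**Figure D5:**
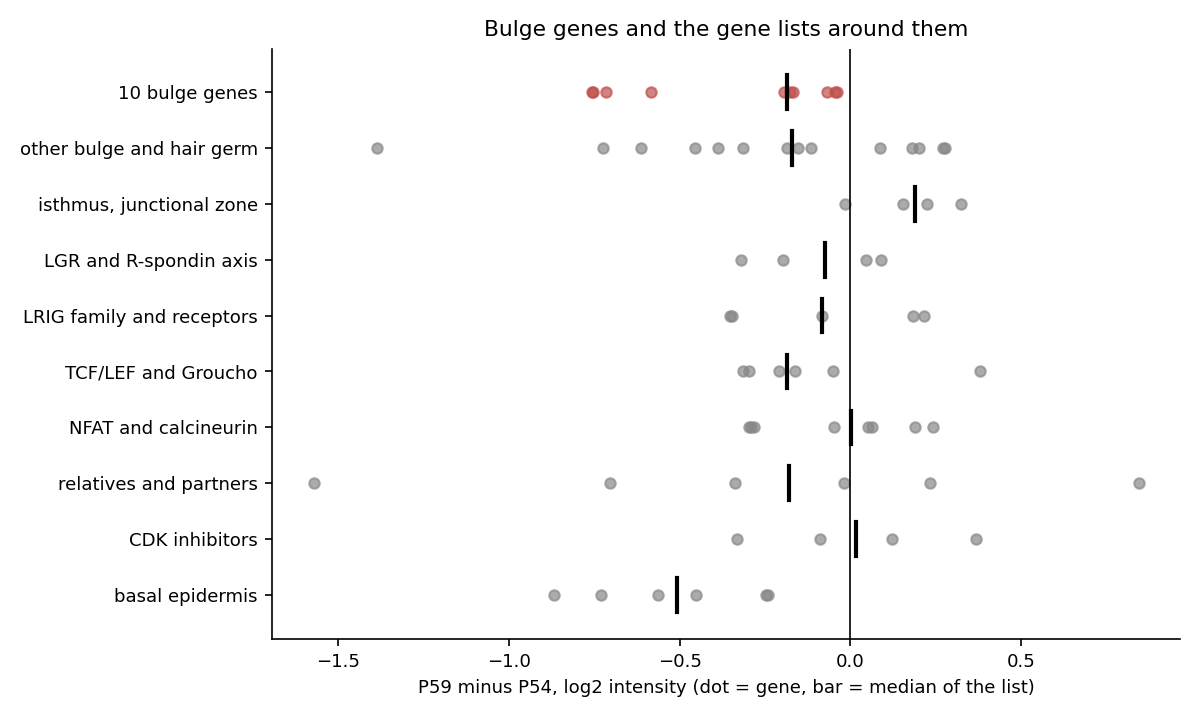
Difference of P59 minus P54 in log2 intensity for each tested gene (dots) and the median (bars) of the 10 bulge genes and of the gene lists around them. The bulge genes and the basal epidermal genes all lie below 0, and the other lists plotted hold genes on both sides.

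All 6 basal epidermal genes tested were lower at P59, with a median of -0.51 and summed intensities of 24069 and 20131 at P59 and 27573 and 29139 at P54. Among them Itga3 differed by -0.73, Itgb4 by -0.87, Lamb3 by -0.56 and Krt5 by -0.45. In limma's fit 0 of the 6 passed the adjusted threshold and 3 had an unadjusted p under 0.05, where 6.49% of all genes did. The integrin gene Itgb4 differed by -0.34 and Krt5 by -0.29 when P59 replicate 2 was left out. Without P59 replicate 1 Itgb4 differed by -1.40. Of the 7 markers of the growing follicle listed, 6 passed the filter, with sums of 10992 and 2178 at P59 and 850 and 374 at P54, highest in P59 replicate 1. Krt25, Krt27, Krt71 and Tchh of the inner root sheath differed by 4.51, 3.70, 3.75 and 3.92. At P54 these 4 genes averaged 5.85, 5.71, 6.26 and 6.38, under the filter, but the P54 arrays were far apart. P54 replicate 1 read 7.21, 6.90, 6.97 and 7.33, above the filter, and P54 replicate 2 read 4.49, 4.52, 5.54 and 5.42, below it. Their P54 means alone would not have passed the filter, so no test is given for these genes. The 10 bulge genes, centred on their own means over the 4 arrays, had a median of -0.13 in P59 replicate 1 and -0.17 in P59 replicate 2, against 0.16 and 0.11 in P54 replicates 1 and 2. The 4 cell cycle genes tested differed by 0.01 to 0.11. RMA gives no value of 0, so absence cannot be read from these values, and the part of these cell types in the bulge gene differences was not tested.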

How the data were processed

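The authors deposited 1 table of intensity values on a linear scale for 45101 probe sets and 4 arrays, and the submitters' processing notes name RMA and Affymetrix Expression Console, with versions and genome build not given in the sources used here. Log2 was taken with no pseudocount. GEO's platform annotation gave 34958 probe sets 1 gene symbol, 932 several and left 9211 unlisted, and 34754 matched RefSeq by Entrez identifier. The set with the highest mean represented a gene, and 10916 genes, those with a mean log2 intensity over the 40th percentile, were tested for P59 against P54 with limma 3.58.1 (R 4.3.3, lmFit and eBayes, 2 residual and 8.19 prior degrees of freedom), adjusted by Benjamini-Hochberg over all of them. The number of arrays limits precision. In 20 simulated runs of 2 arrays against 2 on 10916 genes, 200 genes were changed. Noise was independent between genes and arrays, with variances drawn from limma's prior, so no array stood apart as P59 replicate 2 did. There the adjusted threshold recovered 24.0% of changes of 2-fold and 98.0% of changes of 4-fold, which need not hold for these arrays. Up to 4 genes of each list described, those of smallest p, are named. Members and lists were chosen with earlier results of these data known. Promoters came from RefSeq (GRCm38.p6). Alternatives changed the filter, probe sets, normalization, variance prior, block and arrays used.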

Additional observations from a re-analysis of the deposited data

How the results depend on the processing

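None of the 10 bulge genes passed the adjusted threshold of limma under any alternative that used all 4 arrays. In the main fit 4 of the 10 had an unadjusted p under 0.05, as 708 of 10916 genes did. Tested singly, 9 of 23 member probe sets did, against 1118 of 20975 sets of all genes. Sets of 1 gene are counted singly there and are not replicates. With an array left out 1 group held a single array, so only differences are given for single genes and lists in those fits. Counts of all genes past a threshold in those fits, given in the next paragraph, are not read as results. The direction of Lgr5, Lgr6, Lrig1, Krt15, Lhx2, Nfatc1 and Foxp1 held in all 10 alternatives that give a value per gene. Changes of filter, variance prior and block leave a gene's difference as it was, so they could not turn it. The mean of probe sets could not turn Krt15 or Lhx2 either, as each has 1 set. The median of all 10 was -0.29 with the mean of probe sets and -0.28 to -0.20 with an array left out, and 7 to 10 of the 10 had a lower mean. Sox9 turned to 0.099 with the mean of probe sets. With an array left out Sox9 ranged from -0.15 to 0.055, Cd34 from -0.24 to 0.10 and Tcf7l1 from -0.11 to 0.031, each above 0 without P54 replicate 1. Single sets of Sox9 gave 0.27 and 0.069, and a set of Lrig1 gave 0.29.

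Genes past the adjusted threshold numbered 2, against 0 without the filter, with a filter at the 60th percentile, with the mean of probe sets, with each set tested or with quantile normalization repeated. They numbered 29 to 401 with an array left out and 155 with the replicate block. Genes at an unadjusted p under 0.05 numbered 708, against 1122 without the filter, 458 with the stricter one, 1118 for single sets and 272 to 2030 with an array left out. The labels share replicate numbers without saying that they pair samples, and same-numbered deviations had a correlation of -0.04. The block called 0 of the bulge genes and left 3 at an unadjusted p under 0.05. Of the other genes named and tested, Ldb1 (adjusted p = 7.52e-05) and Ccn2 (adjusted p = 0.00110) passed the threshold of limma's fit with the block. Without the block limma's fit gave them adjusted p of 0.618 and 0.5895. Their P59 arrays were far apart, at 8.69 and 6.39 for Ldb1 and 9.62 and 11.50 for Ccn2. The block rests on a pairing that the labels do not state, so its small p-values are not read as results. Krt25, Krt27, Krt71 and Tchh are left out here, as no test is given for them.

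Of the other genes, with the mean of probe sets Gata6 turned to -0.077, Znrf3 to -0.0028, Axin2 to -0.53, Ppp3cb to -0.0091 and Sox4 to -0.27. With an array left out, Plet1 ranged from -0.053 to 0.50, Prdm1 from -0.37 to 0.34, Rspo1 from -0.67 to 0.035, Znrf3 from -0.065 to 0.24, Axin2 from -0.13 to 0.23, Egfr from -0.0070 to 0.44, Erbb3 from -0.026 to 0.39, Ppp3r1 from -0.72 to 0.14 and Cdkn2b from -0.016 to 0.26. The cause of these turns was not tested. In the simulated runs of 2 arrays against 2, 24.0% of changes of 2-fold passed the adjusted threshold, and smaller changes were not simulated.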

Other observations

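Cell types outside the follicle epithelium also differed in direction between the times, with 0 of their genes past the adjusted threshold in limma's fit. Of 28 genes tested in 7 lists, 4 had an unadjusted p under 0.05 in limma's fit, where 6.49% of all genes did. The endothelial and fibroblast lists, described with Cd34, are not among these. Of them, 1 of 6 endothelial genes, lower at P59, and 1 of 5 fibroblast genes, higher at P59, had such a p. All 5 macrophage genes tested had a higher mean at P59, with a median of 0.48 and summed intensities of 7810 and 9121 at P59 and 7081 and 6271 at P54. Groups did not overlap for 3 of the 5, against 18.9% of all genes in this direction. C1qb in P59 replicate 2 (10.11) and Csf1r in P59 replicate 1 (11.45) lay below both P54 arrays. All 3 adipocyte genes were lower, with a median of -0.44 and sums of 3974 and 4275 at P59 and 6285 and 5076 at P54. Of 5 mast cell genes 3 were higher and 2 lower (median 0.34), with sums of 2494 and 2575 at P59 and 2302 and 1817 at P54. The medians were -0.12 for 5 suprabasal genes, 0.10 for 3 sebaceous genes, 0.06 for 3 lymphocyte genes and -0.02 for 4 muscle genes.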
